A study of Mus musculus with 14 samples.

Results

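The genes described here are the ligands and receptors of VEGF and angiopoietin signalling together with Hif1a, in the ventricles of mice with or without pressure overload. They were chosen by name as a list of 10 genes: the ligand genes Vegfa, Vegfb, Vegfc and Pgf, the VEGF receptor genes Kdr and Flt1, the angiopoietin genes Angpt1 and Angpt2, their receptor gene Tek, and Hif1a. This list and the pathway and marker lists below were chosen with earlier results of these data known. All 10 were among the 24972 genes of the table, and all 10 passed the filter on low values.

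Ventricle RNA with poly(A) tails was sequenced from C57BL/6N males operated on at 9 to 10 weeks of age, either with TAC, a constriction of the aorta that loads the left ventricle with pressure, or with a sham procedure. After 2 weeks, echocardiography chose 30 TAC mice with an ejection fraction of 40 to 60% and 10 sham mice with normal function, so that the TAC groups represent moderate dysfunction only. The tail vein injection of 100 ul then held 1e12 viral genomes of AAV2/9-GFP, the control virus, or of AAV2/9-JP2NT, which encodes an N-terminal fragment of junctophilin-2, and tissue was taken 8 weeks after surgery. The comparisons ask what pressure overload changed under the control virus, what JP2NT changed in overloaded and in sham hearts, and whether the effect of overload differed between the viruses.

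The groups were sham surgery with AAV2/9-GFP (Sham+GFP, 3 libraries), TAC with AAV2/9-GFP (TAC+GFP, 4 libraries), sham surgery with AAV2/9-JP2NT (Sham+JP2NT, 3 libraries) and TAC with AAV2/9-JP2NT (TAC+JP2NT, 4 libraries). Every group therefore carries a virus, and no library from a mouse without virus was analysed here. The promoter that drives the transgenes is not given in the sources used here, and the labels do not tie each library to a mouse of its own, so p-values measure the spread between these libraries, which may be partly technical. In Sham+JP2NT, the variance between replicates 1 and 2 was 1.33 times that of counting noise, against 2.36 to 26.7 times in the other 17 pairs of replicates. Their mean was used as a single sample, so tests had 13 samples, of which Sham+JP2NT gave 2. Jph2, whose N-terminal part the virus carries, was at 6141 ± 332 (SD, n = 4) in TAC+GFP and 6327 ± 313 (n = 4) in TAC+JP2NT, a log2 difference of 0.04 (limma adjusted p = 0.715). In sham hearts it was at 7910 ± 261 (n = 3) with GFP and at 6997 ± 206 (n = 2) with JP2NT (adjusted p = 0.998). It was thus not clearly higher with JP2NT in either surgery, and since it is not known whether reads of the transgene were counted to Jph2, its values gave no check of the vector labels.

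The libraries held an estimated 8650188 to 14460617 reads assigned to genes. On the first principal component, with 50.2% of the variance, the sham samples lay at -42.1 to -38.9, the TAC+GFP libraries at 32.2 to 42.9, and TAC+JP2NT replicates 1 to 3 at 20.2 to 24.1. TAC+JP2NT replicate 4 stood apart from its group at -5.58. Markers of atrial muscle also differed widely between libraries: the summed level of Myl7, Sln, Myl4 and Bmp10 was 467.3 to 3349 in Sham+GFP, 1312 to 5003 in TAC+GFP, 3703 to 6047 in Sham+JP2NT (with replicates 1 and 2 averaged) and 1017 to 10640 in TAC+JP2NT, where replicates 2 (7467) and 4 (10640) were highest. Results that rest on these libraries are given with and without them. Myl4 and Myl7 make up most of the atrial sum, and its markers did not move as one with TAC. Means in Sham+GFP and TAC+GFP were 995.9 and 1798 for Myl4, 699.4 and 760.3 for Myl7, and 202.7 and 325.9 for Sln. Those of Bmp10 were 77.53 and 22.1. Whether the sum measures atrial tissue alone in TAC libraries was not tested.

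VEGF-A signals to endothelial cells mainly through VEGFR2, the product of Kdr, while VEGFR1, the product of Flt1, binds VEGF-A tightly but signals weakly and also has a soluble form that acts as a decoy. VEGF-B and placental growth factor, the product of Pgf, bind VEGFR1, and VEGF-C acts mainly on lymphatic vessels. Angiopoietin-1 activates the endothelial receptor Tie2, the product of Tek, and keeps vessels stable, whereas angiopoietin-2, stored in endothelial cells, can oppose it. HIF-1 alpha, the product of Hif1a, is held low in oxygenated cells mainly through degradation of the protein, and induces Vegfa and many metabolic genes, and in a heart that grows under pressure the capillary bed has to keep pace with the muscle.

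Values are counts rescaled jointly over the libraries, so that a value is close to the reads of a gene in a library of typical depth. Fold changes come from log2(value + 1), and a gene is said to rise or fall where limma's adjusted p, corrected over the 13212 genes tested, is under 0.05. Levels per kilobase of exon allow a rough comparison of genes with each other. The length used merges all annotated exons of a gene (13504 bases for Flt1, 4712 for Tek) and can exceed that of the transcripts present. The SDs do not cover this, so the order below holds for this measure only. On it, Vegfb was the most abundant of the 10 genes in Sham+GFP at 1950 ± 94.7 (SD, n = 3). Vegfa followed at 563 ± 45.3 and Kdr at 382 ± 23.9, and the spreads of these 3 genes did not touch. Tek (195 ± 4.5), Flt1 (151 ± 1.99), Hif1a (117 ± 2.87) and Angpt1 (71.7 ± 17.4) came next, each apart from its neighbours by more than their SDs. Vegfc (39.1 ± 6.29), Pgf (25.3 ± 3.13) and Angpt2 (15.7 ± 1.13) were the least abundant. In TAC+GFP the order changed in the middle: Hif1a (252 ± 66.7, n = 4) and Kdr (220 ± 20.7) lay within their spread of each other, and so did Pgf (49.8 ± 27.5) and Angpt1 (46.1 ± 8.22). In TAC+JP2NT, Hif1a stood at 164 ± 37.7 per kilobase, within its spread of Tek (158 ± 11.6) and Flt1 (141 ± 8.81), and below Kdr (259 ± 17.2).

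Pressure overload under the control virus lowered Kdr, Vegfb, Angpt1 and Tek and raised Hif1a, while Vegfa, the principal ligand, did not pass the test. In TAC+GFP against Sham+GFP, 1 of the 10 genes rose and 4 fell. Over all genes tested 48.1% were called, 23.3% higher and 24.8% lower, so a count of 5 in 10 is near the background. In 4 of the 10 (Vegfb, Kdr, Tek and Hif1a) the libraries of the 2 groups did not overlap, as in 53.1% of all genes. The median log2 fold change of the 10 genes was -0.293, beside -0.00523 over all genes tested. With JP2NT in overloaded hearts, Hif1a alone was called, lower in TAC+JP2NT, where 6.15% of all genes were called. None of the 10 had groups that did not overlap there, against 10.7% of all genes. The 2 comparisons share the TAC+GFP libraries, so a high or low value there moves both in opposite directions.

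**Figure D1:**
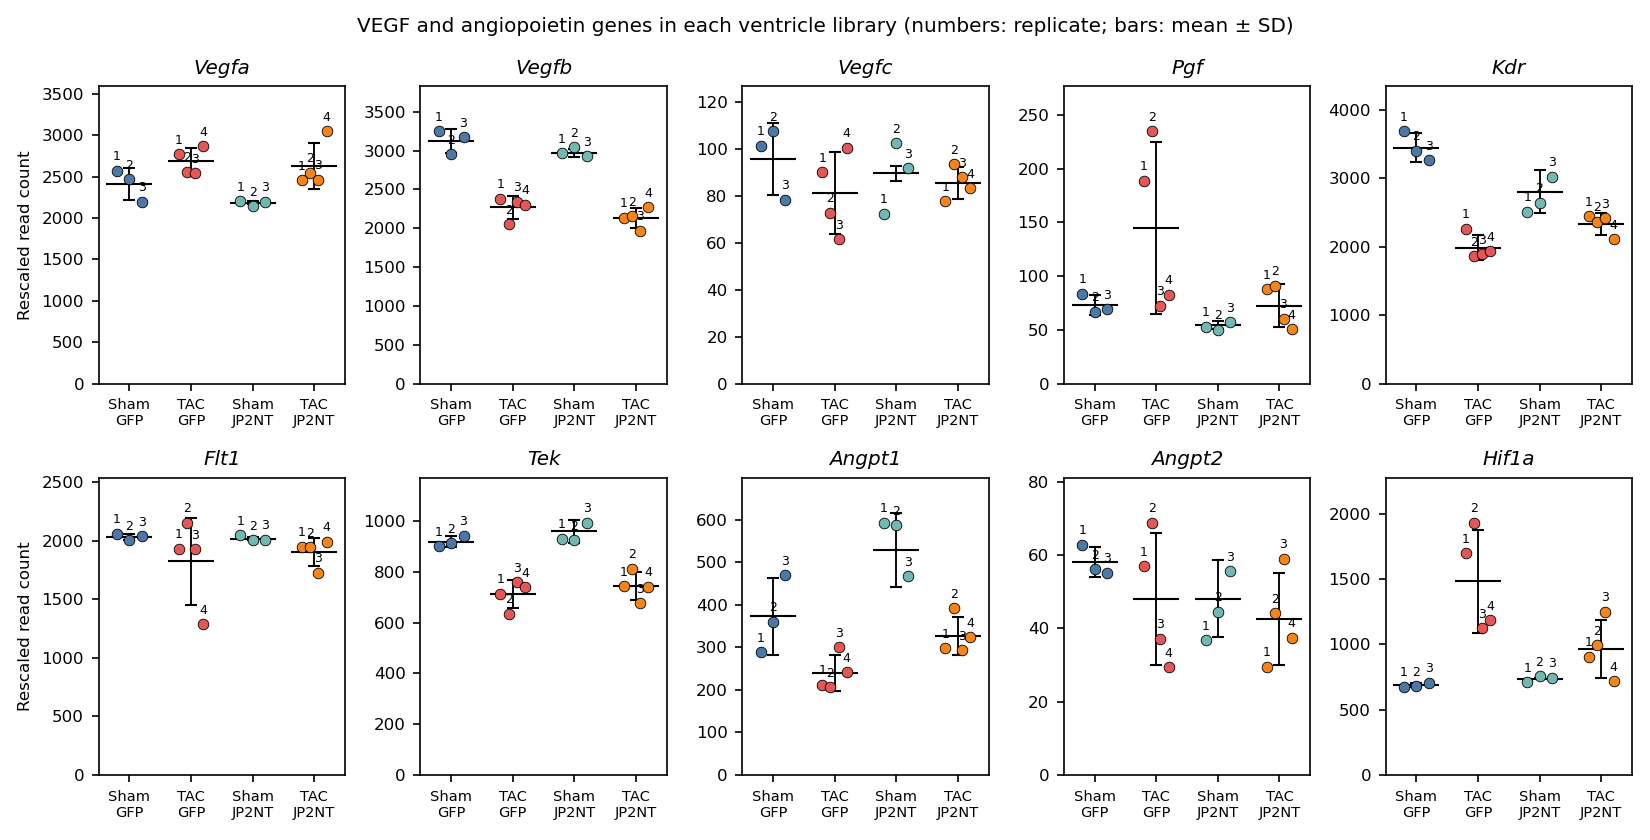
Rescaled read count (y axis, from 0) of each of the 10 genes in each of the 14 libraries, by group (x axis), where points carry the replicate number and bars show the mean ± SD with Sham+JP2NT replicates 1 and 2 averaged. Kdr, Vegfb and Tek are lower in all 4 TAC+GFP libraries than in any Sham+GFP library, Hif1a is higher in all 4, and Pgf is high in TAC+GFP replicates 1 and 2 only.

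Among the ligands, Vegfa (chr17:46016993-46032369, minus strand, GRCm38, as for all positions of genes below) encodes the main endothelial growth factor of the family. Its rescaled counts were 2572, 2472 and 2197 in Sham+GFP, 2774, 2559, 2543 and 2869 in TAC+GFP, 2205, 2145 and 2199 in Sham+JP2NT, and 2460, 2548, 2465 and 3048 in TAC+JP2NT. The groups with GFP overlapped, whereas every TAC+JP2NT library was above every Sham+JP2NT library. The log2 fold change with TAC was 0.16 (95% interval -0.0205 to 0.332, adjusted p = 0.133) under GFP and 0.26 (SE 0.0935, adjusted p = 0.0457) under JP2NT. The rise of Vegfa under JP2NT was 0.19 without TAC+JP2NT replicate 4 (adjusted p = 0.0703), and 0.17 without replicates 2 and 4, the libraries highest in atrial markers (adjusted p = 0.158). Between the viruses in TAC hearts, the difference was -0.03 with an interval of -0.197 to 0.129.

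Vegfb (chr19:6982473-6987651, minus strand) encodes a VEGFR1 ligand that is abundant in heart muscle. It was at 3247, 2955 and 3174 in Sham+GFP and at 2380, 2049, 2343 and 2304 in TAC+GFP. Under JP2NT it was at 2963, 3046 and 2931 in sham and at 2133, 2153, 1967 and 2269 in TAC hearts. Under either virus, every TAC library lay below every sham library. Vegfb fell 1.38-fold with TAC under GFP (log2 fold change -0.46, SE 0.0682, adjusted p = 7.7e-05) and by a log2 fold change of -0.48 under JP2NT (adjusted p = 0.000514). TAC+JP2NT differed from TAC+GFP by -0.09 (adjusted p = 0.435).

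Pgf (chr12:85166635-85177790, minus strand), the gene of placental growth factor, varied more within TAC+GFP than any other of the 10 genes, with a coefficient of variation of 55.2%. It stood at 83.74, 67.04 and 69.17 in Sham+GFP, and at 188.8, 234.8, 72.51 and 82.58 in TAC+GFP. Replicates 1 and 2 were thus far above every other library, while replicates 3 and 4 lay within or near the range of Sham+GFP. In the JP2NT hearts Pgf was at 53.09, 50.25 and 56.84 after sham surgery and at 87.59, 91.05, 60.43 and 50.46 after TAC, and none of these libraries reached the values of TAC+GFP replicates 1 and 2. The log2 fold change with TAC under GFP was 0.80 (95% interval 0.0708 to 1.53, adjusted p = 0.0661), and TAC+JP2NT against TAC+GFP was -0.85 (-1.53 to -0.179, adjusted p = 0.12). Neither passed the test over all genes. Without TAC+GFP replicate 3 the values were 1.07 (adjusted p = 0.0134) and -1.12 (adjusted p = 0.0369), and without TAC+GFP replicate 4 the first was 1.01 (adjusted p = 0.0263). Without replicates 1 and 2, the closest pair of that group, they were 0.08 (adjusted p = 0.808) and -0.14 (adjusted p = 0.855).

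Vegfc (chr8:54077606-54187096, plus strand), the lymphatic ligand, was low in all libraries, with 73.2 to 96.6 reads per library on average in the 4 groups. Its levels were 78.43 to 107.6 in Sham+GFP, 61.59 to 100.6 in TAC+GFP, 72.4 to 102.5 in the Sham+JP2NT libraries and 77.75 to 93.62 in TAC+JP2NT, so all groups overlapped. The log2 fold change was -0.25 with TAC under GFP (adjusted p = 0.236) and 0.10 for TAC+JP2NT against TAC+GFP (adjusted p = 0.764).

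Of the VEGF receptor genes, Kdr fell with TAC and Flt1 did not pass the test. Kdr (chr5:75932827-75978458, minus strand), which encodes the main signalling receptor, was at 3689, 3404 and 3266 in Sham+GFP and at 2267, 1866, 1888 and 1937 in TAC+GFP. Every TAC+GFP library was below every Sham+GFP library. Kdr fell 1.74-fold (log2 fold change -0.80, SE 0.0842, adjusted p = 4.97e-06), the largest fall among the 10 genes, and fell in all 20 alternative settings and leave-outs tried (-0.86 to -0.75). Under JP2NT it was at 2515, 2647 and 3027 in sham hearts and at 2450, 2365, 2415 and 2108 in TAC hearts. These groups did not overlap either, but lay closer together: the log2 fold change was -0.26 (adjusted p = 0.0482), and -0.15 without Sham+JP2NT replicate 3 (adjusted p = 0.436) or -0.20 without TAC+JP2NT replicates 2 and 4 (adjusted p = 0.166). The effect of TAC on Kdr differed between the viruses by 0.54 (95% interval 0.264 to 0.807, unadjusted p = 0.000789), which did not pass over all genes (adjusted p = 0.138). With Sham+JP2NT replicates 1 and 2 as separate samples it was 0.57 and passed (adjusted p = 0.0369).

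Between the viruses, Kdr differed in opposite directions after TAC and after sham surgery, without passing over all genes. Kdr in TAC+JP2NT exceeded TAC+GFP by 0.23 (95% interval 0.0663 to 0.399, adjusted p = 0.0884), and by 0.28 without TAC+JP2NT replicate 4, where it passed (adjusted p = 0.049). In sham hearts, Kdr was lower with JP2NT than with GFP by 0.30, read as a log2 fold change of -0.30 (unadjusted p = 0.00891, adjusted p = 0.998). In the sham and the TAC+JP2NT libraries, Kdr tended to be lower where the atrial markers were higher. The 6 sham libraries had summed atrial markers of 467.3, 2111 and 3349 (Sham+GFP) and 6039, 6056 and 3703 (Sham+JP2NT), and Kdr was highest where the sum was lowest and lowest in the pair of libraries where it was highest. In TAC+JP2NT Kdr was also lowest, at 2108, in the library with the highest sum (replicate 4, 10640) and highest, at 2450, in that with the lowest (replicate 1, 1017). TAC+GFP did not show this order, since Kdr was lowest, at 1866, in the library with the lowest sum (replicate 2, 1312). All Sham+JP2NT sums were above all Sham+GFP sums, so in sham hearts the order cannot be told apart from the virus. The part of atrial tissue in these differences was not tested.

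**Figure D2:**
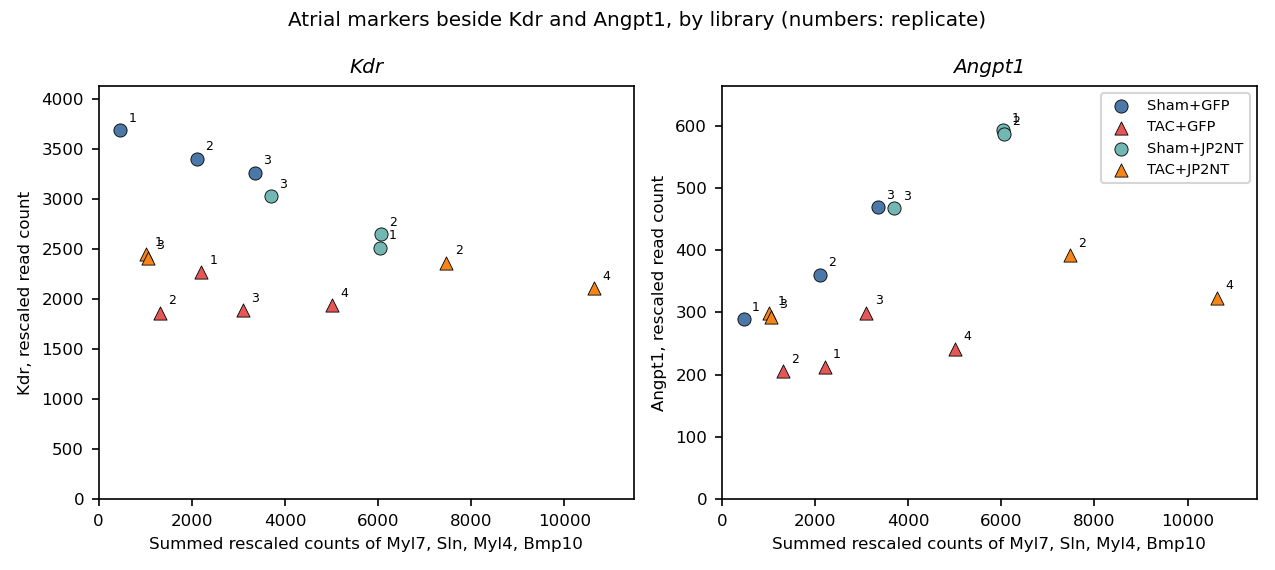
Rescaled read count of Kdr (left, y axis) and of Angpt1 (right, y axis) against the summed rescaled counts of the atrial markers Myl7, Sln, Myl4 and Bmp10 (x axis) in each library, with circles for sham and triangles for TAC libraries and replicate numbers beside them. Among the circles Kdr runs from 3689 at an atrial sum of 467.3 down to 2515 at 6039, and Angpt1 from 289 up to 592.7, while the TAC+GFP triangles show no such order for Kdr.

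Flt1 (chr5:147561604-147726011, minus strand), the decoy-like receptor, was at 2060, 2007 and 2039 in Sham+GFP, 1932, 2154, 1928 and 1288 in TAC+GFP, 2047, 2006 and 2009 in Sham+JP2NT, and 1949, 1947, 1728 and 1992 in TAC+JP2NT. Apart from TAC+GFP replicate 4, at 1288, the libraries lay between 1728 and 2154, and the fall of its mean rests on that library. The log2 fold change with TAC was -0.18 under GFP (adjusted p = 0.249), and TAC+JP2NT against TAC+GFP was 0.08 (adjusted p = 0.724). Without TAC+GFP replicates 1 and 2, which leaves replicate 4 as 1 of 2 samples, Flt1 was -0.37 and passed (adjusted p = 0.039), and without replicate 4 it was -0.02 (adjusted p = 0.796).

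A ratio within a library does not depend on how that library was scaled. The ratio of Flt1 to Kdr counts was 0.559, 0.59 and 0.625 in Sham+GFP, and 0.852, 1.15, 1.02 and 0.665 in TAC+GFP. All TAC+GFP libraries were above all Sham+GFP libraries, by 0.61 on the log2 scale, a 1.53-fold higher ratio (two-sided exact permutation p = 0.0571, where 0.0286 is the smallest possible). Adjusted over the 12 differences tested (3 ratios in 4 comparisons) it did not pass (adjusted p = 0.549, exact permutation test). With samples this few, no ratio could have passed after that adjustment, so this does not show that the ratios were alike. The ratio was 0.664 to 0.785 in Sham+JP2NT and 0.715 to 0.945 in TAC+JP2NT, and the log2 difference of TAC+JP2NT from TAC+GFP was -0.15 (exact permutation p = 0.457).

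Fewer endothelial cells and less RNA per endothelial cell cannot be told apart in RNA from whole ventricles. The 10 endothelial markers (Pecam1, Cdh5, Egfl7, Vwf, Emcn, Esam, Eng, Erg, Robo4 and Cldn5) summed to 13870 to 14140 in Sham+GFP and 11960 to 14430 in TAC+GFP. With TAC under GFP, 1 of them rose, Egfl7 at 0.53, and 2 fell, Cdh5 at -0.23 and Eng at -0.47. Over all genes 23.3% rose and 24.8% fell. As a percentage of that sum, Kdr was 23.55 to 26.54% in Sham+GFP and 12.93 to 16.2% in TAC+GFP, so it was lower relative to the endothelial markers as well. In the JP2NT hearts it was 17.96 to 21.57% after sham surgery and 18.13 to 20.64% after TAC. Flt1 was 14.2 to 14.82% of the endothelial sum in Sham+GFP and 10.77 to 14.93% in TAC+GFP. Under JP2NT it was 14.31 to 14.62% after sham surgery and 14.77 to 17.5% after TAC, so every TAC library was above every sham library there.

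The promoters of the receptor genes are shown because Kdr and Flt1 encode receptors of the same ligand, and Kdr fell while Flt1 did not pass. They are the 250 bases before the RefSeq start (GRCm38.p6, chr5:75978456-75978705 for Kdr and chr5:147726012-147726261 for Flt1, both on the minus strand), written 5′ to 3′ with GGAAG or its reverse complement CTTCC, a core read by ETS factors, in capitals.
Kdr: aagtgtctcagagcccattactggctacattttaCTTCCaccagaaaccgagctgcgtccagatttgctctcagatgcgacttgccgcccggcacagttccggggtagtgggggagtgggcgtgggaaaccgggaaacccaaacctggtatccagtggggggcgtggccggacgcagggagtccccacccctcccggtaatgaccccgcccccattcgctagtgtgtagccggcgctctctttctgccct
Flt1: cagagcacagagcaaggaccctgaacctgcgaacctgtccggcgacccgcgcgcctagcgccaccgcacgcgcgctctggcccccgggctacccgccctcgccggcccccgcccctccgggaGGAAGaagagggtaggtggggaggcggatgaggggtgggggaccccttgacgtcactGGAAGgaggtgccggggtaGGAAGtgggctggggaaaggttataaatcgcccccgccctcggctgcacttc
Kdr had 1 match, which begins 216 bases before the start, and Flt1 had 3, which begin 128, 71 and 52 bases before it. The motif, searched on both strands, is common, with a match in 64.1% of 32851 promoters of that length. The shorter core GGAA, or TTCC on the other strand, also occurs outside these matches in both sequences. The counts of 1 and 3 therefore hold for GGAAG only. RefSeq promoters were matched for 8 of the 10 genes, and not for Angpt1 and Angpt2.

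Angpt1 (chr15:42424723-42676977, minus strand), the activating ligand of Tie2, fell with TAC under either virus. Its levels were 289, 360.7 and 469.1 in Sham+GFP and 212.7, 205.8, 299.8 and 241.6 in TAC+GFP. TAC+GFP replicate 3 lay above the lowest Sham+GFP library, and the other 3 below all of them. The fall was 1.54-fold under GFP (log2 fold change -0.62, SE 0.165, adjusted p = 0.0062), and -0.44 without TAC+GFP replicates 1 and 2, where it did not pass (adjusted p = 0.0855). In the JP2NT hearts Angpt1 was at 592.7, 587.3 and 467.5 after sham surgery and at 298.7, 391.8, 293.4 and 323.8 after TAC. Those groups did not overlap, and the log2 fold change was -0.69 (adjusted p = 0.012).

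Angpt1 was 0.45 higher in TAC+JP2NT than in TAC+GFP on the log2 scale (95% interval 0.125 to 0.777, adjusted p = 0.0911). It passed without TAC+GFP replicate 3 (0.56, adjusted p = 0.0386), and without TAC+JP2NT replicates 2 and 4 it was 0.32 (adjusted p = 0.411). In sham hearts Angpt1 was 0.52 higher with JP2NT (unadjusted p = 0.0187, adjusted p = 0.998). There it moved with the atrial markers in the opposite direction to Kdr, from 289 in the library with the lowest atrial sum to 592.7 and 587.3 in the pair with the highest, and the part of atrial tissue was not tested.

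Tek (chr4:94739289-94874976, plus strand), which encodes the receptor of both angiopoietins, was at 902.3, 912.5 and 943 in Sham+GFP, 715.1, 635, 760.5 and 740 in TAC+GFP, 931.8, 925.8 and 993.4 in Sham+JP2NT, and 744.6, 812.2, 678 and 741.5 in TAC+JP2NT. Every TAC library lay below every sham library. Tek fell 1.29-fold under GFP (log2 fold change -0.37, SE 0.0763, adjusted p = 0.00112) and by the same log2 size under JP2NT (-0.37, adjusted p = 0.00535), which did not pass without Sham+JP2NT replicate 3 (-0.32, adjusted p = 0.0778). Between the viruses in TAC hearts the difference was 0.06 (adjusted p = 0.651). Relative to the endothelial markers, Tek was 6.455 to 6.799% of their sum in Sham+GFP and 4.401 to 6.189% in TAC+GFP. Under JP2NT it was 6.652 to 7.079% after sham surgery and 5.795 to 6.516% after TAC.

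Angpt2 (chr8:18690263-18741562, minus strand), the context-dependent antagonist, was the least abundant of the 10 genes, with 37.2 to 58.5 reads per library on average in the groups. It was at 55.2 to 62.85 in Sham+GFP, 29.41 to 68.78 in TAC+GFP, 36.81 to 55.55 in the Sham+JP2NT libraries and 29.52 to 58.99 in TAC+JP2NT. The groups overlapped, and the log2 fold change was -0.34 with TAC under GFP (adjusted p = 0.325) and -0.14 for TAC+JP2NT against TAC+GFP (adjusted p = 0.794). Without TAC+GFP replicates 1 and 2, which had its highest levels in that group, the first was -0.79 and passed (adjusted p = 0.0339). Angpt2 overlaps Mcph1 on the other strand (deposited values of 62.56 to 93.19), and whether the counting used strand is not given in the sources used here, so its level is uncertain. The ratio of Angpt2 to Angpt1 ranged from 0.12 to 0.22 in Sham+GFP, 0.125 to 0.338 in TAC+GFP, 0.0706 to 0.121 in Sham+JP2NT and 0.102 to 0.204 in TAC+JP2NT. Its differences did not pass (exact permutation p = 0.171 to 0.571, adjusted p = 0.549 to 0.623), nor did those of Pgf to Vegfa (exact permutation p = 0.2 to 0.933). With n = 2 in Sham+JP2NT, the smallest possible p of these exact permutation tests is 0.0667 against TAC+JP2NT and 0.1 against Sham+GFP, so they could not pass there.

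**Figure D3:**
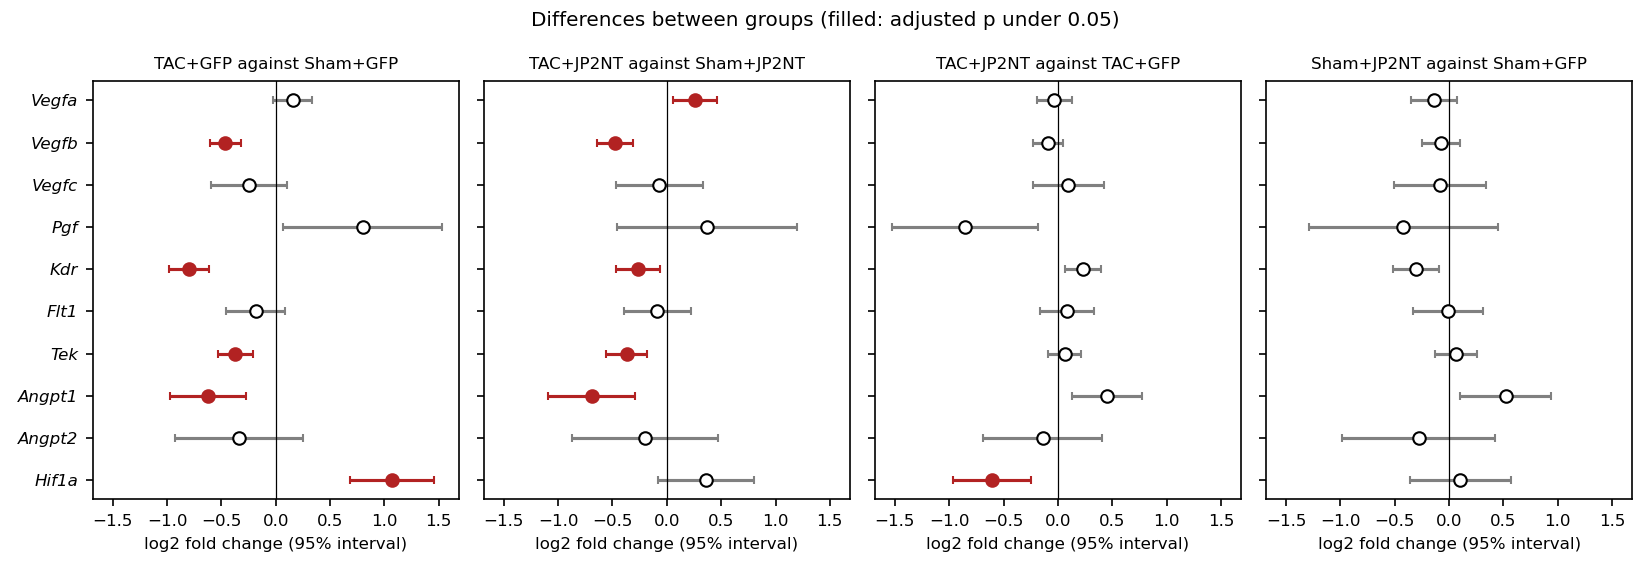
Log2 fold change (x axis) of each of the 10 genes (y axis) in 4 comparisons, with 95% intervals from limma, where filled red points passed at an adjusted p under 0.05. Under GFP 5 genes passed with TAC, under JP2NT 5 passed, between the viruses Hif1a alone passed in TAC hearts and no gene passed in sham hearts.

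Hif1a (chr12:73901375-73947530, plus strand), the gene of the oxygen-regulated subunit, rose with TAC under the control virus. Its levels were 676.5, 679.8 and 707.2 in Sham+GFP and 1695, 1929, 1121 and 1186 in TAC+GFP, so every TAC+GFP library was above every Sham+GFP library and TAC+GFP replicates 1 and 2 were highest. Hif1a rose 2.1-fold (log2 fold change 1.07, SE 0.182, adjusted p = 0.000261), and the rise passed in all 20 alternative settings and leave-outs (0.74 to 1.19). In the JP2NT hearts it was at 709.8, 757.2 and 743 after sham surgery and at 905.1, 991.1, 1250 and 715.5 after TAC. In TAC+JP2NT, 3 of the 4 libraries were above all sham libraries, while replicate 4, at 715.5, lay within the range of Sham+JP2NT. The interval of Hif1a also holds Gm49321 on the same strand and Gm15283 on the other, so reads shared with them could add to its level. The log2 fold change with TAC under JP2NT was 0.36 (95% interval -0.0837 to 0.8, adjusted p = 0.205). The effect of TAC on Hif1a differed between the viruses by -0.71 (95% interval -1.3 to -0.122, unadjusted p = 0.0213), which did not pass over all genes (adjusted p = 0.34).

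Among overloaded hearts, Hif1a was 1.53-fold lower with JP2NT than with GFP (log2 fold change -0.61, SE 0.169, 95% interval -0.97 to -0.248, adjusted p = 0.0461). The groups overlapped, since TAC+JP2NT replicate 3 at 1250 was above TAC+GFP replicates 3 and 4. The direction held in all 22 alternatives, but the test did not pass in 11 of them. Leaving out TAC+GFP replicate 1 gave -0.53 (adjusted p = 0.131), TAC+GFP replicate 2 gave -0.47 (0.148), and TAC+JP2NT replicate 4, which stood apart, gave -0.47 (0.0991). Without TAC+JP2NT replicates 2 and 4 it was -0.44 (adjusted p = 0.263), and without TAC+GFP replicates 1 and 2 it was -0.28 (adjusted p = 0.455).

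The promoter of Hif1a is shown because Hif1a was the gene called between the viruses in TAC hearts. It is the 250 bases before the RefSeq start (GRCm38.p6, chr12:73907617-73907866, plus strand), which lies inside the interval that GENCODE gives for the gene, with ACGTG or its reverse complement CACGT, the core of the hypoxia response element, in capitals.
Hif1a: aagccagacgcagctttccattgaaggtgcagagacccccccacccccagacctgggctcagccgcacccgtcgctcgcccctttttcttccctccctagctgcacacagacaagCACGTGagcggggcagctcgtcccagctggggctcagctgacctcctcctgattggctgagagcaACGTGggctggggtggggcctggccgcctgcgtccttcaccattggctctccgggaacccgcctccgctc
There were 3 matches, which begin 135, 134 and 70 bases before the start, and of which the 2 farthest from it overlap in CACGTG. Of 32851 RefSeq promoters of that length, 16.6% held the motif on either strand. A match describes the sequence and does not show that a factor binds there.

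Of 9 other genes of subunits and regulators of these factors, 1 rose and 3 fell with TAC under GFP, where 23.3% of all genes rose and 24.8% fell, with a median log2 fold change of -0.0688. Egln1, the main prolyl hydroxylase that marks the alpha subunits for degradation, fell 1.77-fold from 7365 ± 284 (SD, n = 3) to 4168 ± 415 (n = 4). Epas1, which encodes the alpha subunit of HIF-2, fell 1.55-fold from 5281 ± 225 to 3457 ± 593, so that it moved against Hif1a. Hif1an, the asparagine hydroxylase that inhibits HIF-1, fell 1.16-fold, while the gene that rose was Arnt2, a partner subunit (adjusted p = 0.0316). Arnt2 was at 2.011 to 5.075 in Sham+GFP and 7.194 to 15.38 in TAC+GFP and passed the filter on low values only through the TAC libraries, so its call is a description. It did not pass without Sham+GFP replicate 1, Sham+GFP replicate 2, TAC+GFP replicate 3 or TAC+GFP replicate 4. None of the 9 passed in TAC+JP2NT against TAC+GFP (median -0.0644), where Egln1 differed by 0.11 (adjusted p = 0.35) and Epas1 by 0.20 (adjusted p = 0.262).

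Described target genes of hypoxia-inducible factors, a list of 17, rose in 9 cases and fell in 3 with TAC under GFP (median log2 fold change 0.469). Over all genes 23.3% rose and 24.8% fell. The 9 include Car9, a carbonic anhydrase gene at 1.188 to 5.058 in Sham+GFP and 16.43 to 51.35 in TAC+GFP, which passed the filter on low values only through the TAC libraries, so its call is given as a description. Ankrd37 rose 2.24-fold, the mitophagy receptor gene Bnip3 2.2-fold, the vasodilator peptide gene Adm 1.79-fold and the glucose transporter gene Slc2a1 1.78-fold. The 3 that fell were the glycolytic genes Hk2 (-0.53), Eno1 (-0.19) and Aldoa (-0.45), so the members of the list did not move as one. Pgk1 differed by 0.07 (adjusted p = 0.397) and Ldha by -0.11 (adjusted p = 0.162).

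In TAC+JP2NT against TAC+GFP, 7 of the 17 target genes were lower and none higher, beside 3.4% lower and 2.75% higher over all genes (medians -0.342 and 0.000591). Adm had been at 174.4, 197.6, 122.3 and 87.01 in TAC+GFP and was at 81.6, 91.41, 71.58 and 75.88 in TAC+JP2NT, a 1.73-fold fall (adjusted p = 0.0345) in groups that overlapped. Ndrg1, a stress-response gene, was 1.44-fold lower (adjusted p = 0.00705), at 746.9 to 1077 against 598.8 to 680.8. The others were Slc2a1 (-0.92), Bnip3 (-0.73), Eno1 (-0.46), Ldha (-0.34) and Pgk1 (-0.29). Car9 differed by -1.38 (adjusted p = 0.0667). Of the 17, 11 were lower in the values as deposited, 3 with the closest TAC pairs averaged or with only the groups compared, 3 without TAC+JP2NT replicates 2 and 4, and 2 without TAC+GFP replicates 1 and 2.

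**Figure D4:**
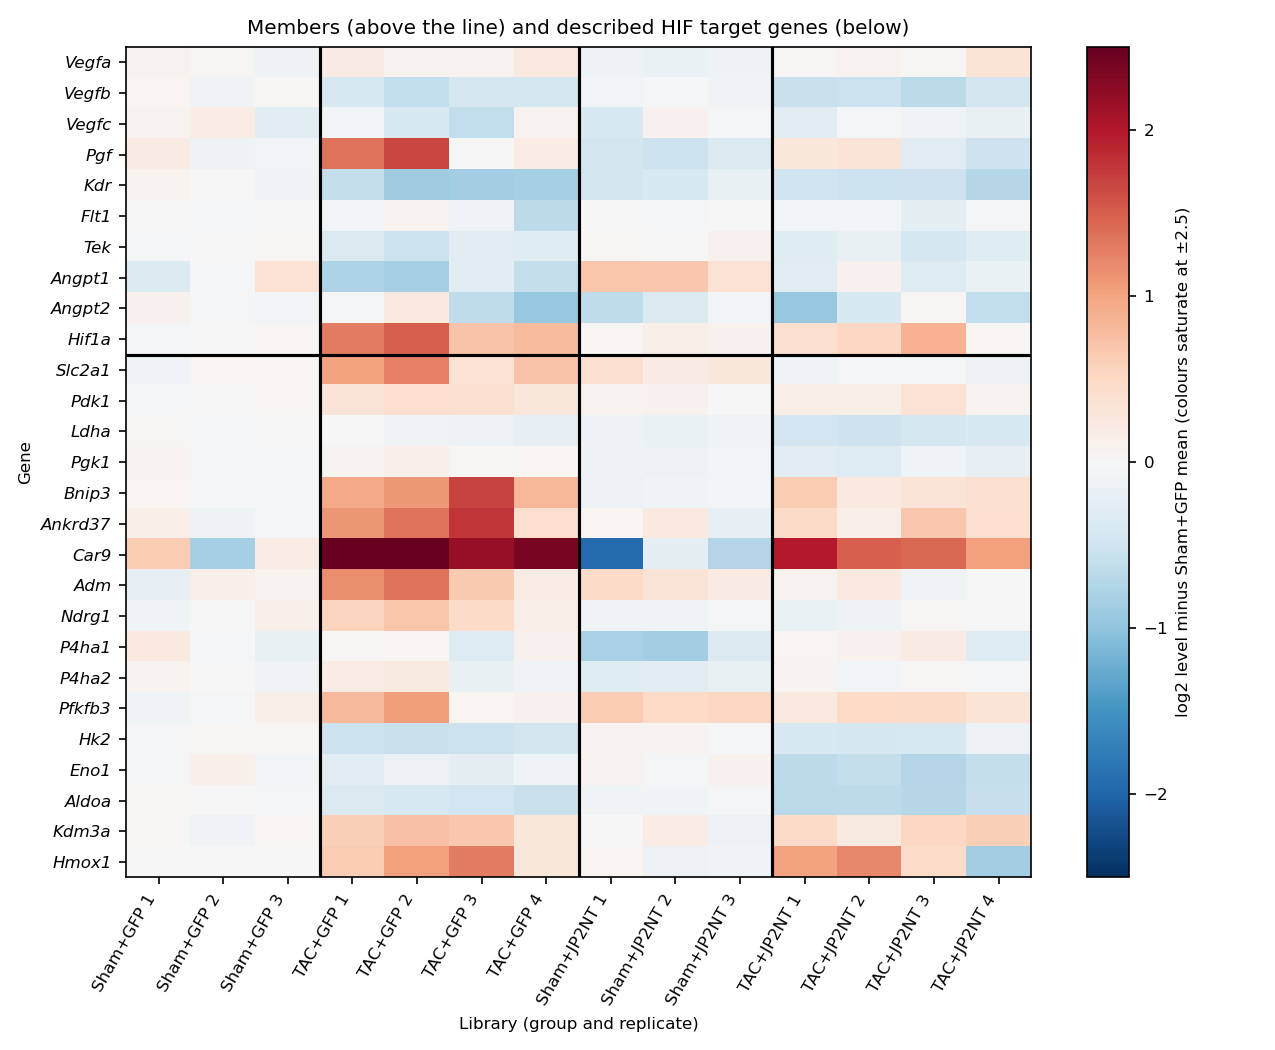
Log2 level of each of the 10 genes (above the line) and of the 17 described target genes of hypoxia-inducible factors (below it) in each library (columns, by group), relative to the Sham+GFP mean, red where higher and blue where lower, with colours saturated at ±2.5. Hif1a and Car9 are reddest in TAC+GFP replicates 1 and 2, and TAC+JP2NT replicate 4 is the palest of the TAC libraries for both.

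Averaged over the 17 target genes, the level relative to the Sham+GFP mean was 0.552, 0.701, 0.45 and 0.258 (log2) in the TAC+GFP libraries and 0.142, 0.0889, 0.116 and -0.0247 in the TAC+JP2NT libraries. These means include Car9, which passed the filter on low values only through the TAC libraries. Car9 was the highest of the 17 in every TAC library, at 2.17 to 3.76 in TAC+GFP and 1.03 to 1.98 in TAC+JP2NT. It thus raises the means of both groups, and the means are given as a description. The highest mean was in TAC+GFP replicate 2, which also had the highest Hif1a and Pgf, and the lowest TAC value was in TAC+JP2NT replicate 4, which had the lowest Hif1a of the TAC libraries. Between these extremes the means did not follow Hif1a. TAC+JP2NT replicate 3, with Hif1a at 1250, had a mean of 0.116. TAC+GFP replicates 3 and 4, with Hif1a at 1121 and 1186, had means of 0.45 and 0.258. The means of the Sham+JP2NT libraries were -0.106 to -0.0342. Red blood cell genes (Hba-a1, Hbb-bt, Hbb-bs and Alas2) rose as well with TAC under GFP, in 3 of the 3 genes tested, where 23.3% of all genes rose. They summed to 6731 to 8488 in Sham+GFP, 15610 to 21720 in TAC+GFP, 8635 to 9555 in Sham+JP2NT and 7711 to 18350 in TAC+JP2NT. The part of blood in the levels of the target genes was not tested.

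Among 16 tested genes of other ligands, receptors and modulators of the pathway, 6 rose and 4 fell with TAC under GFP (median log2 fold change 0.237), beside 23.3% and 24.8% of all genes (median -0.00523). Ptprb, the endothelial phosphatase that switches Tie2 off, rose 1.98-fold from 1307, 1359 and 1409 to 2820, 3194, 2961 and 1959. All TAC+GFP libraries were above all Sham+GFP libraries, opposite in direction to Tek. Svep1, the gene of a matrix protein described to bind Tie1, rose 2.49-fold from 248 ± 23 (SD, n = 3) to 623.3 ± 95.7 (n = 4). The genes of the vessel-restraining ligands Sema3f and Sema3a rose 2.18-fold and 1.81-fold, and Col18a1, whose product is the source of endostatin, rose 1.36-fold. The 4 that fell were Nrp1 (-0.37), the co-receptor of VEGFR2, Tie1 (-0.21), Cdh5 (-0.23) and Foxo1 (-0.39), a transcription factor that Tie2 signalling holds in check. The sixth that rose was Nos3 (0.38), the endothelial nitric oxide synthase. None of the 16 passed in TAC+JP2NT against TAC+GFP (median -0.0753), but 2 were higher without TAC+JP2NT replicate 4, and 1 was lower without TAC+GFP replicate 4 or TAC+JP2NT replicate 3. Under JP2NT, 5 rose and 3 fell with TAC, beside 16.1% and 15.8% of all genes. With TAC under GFP, 3 rose without TAC+GFP replicates 1 and 2, and 2 fell without Sham+GFP replicate 2.

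Of 10 genes that VEGF induces in endothelial tip cells, 4 rose and none fell with TAC under GFP (median log2 fold change 0.34), beside 23.3% and 24.8% of all genes. They were Plaur, the urokinase receptor gene (2.16-fold), the basement membrane collagen genes Col4a1 (1.51-fold) and Col4a2 (1.36-fold), and the netrin receptor gene Unc5b (1.29-fold). The tip cell markers Esm1 (0.32, adjusted p = 0.53) and Dll4 (-0.04, adjusted p = 0.871) did not pass. Nor did Apln (-0.59, adjusted p = 0.063) and Pdgfb (-0.20, adjusted p = 0.0866), which were lower. Cxcr4 (0.75, adjusted p = 0.0702) and Nid2 (0.31, adjusted p = 0.0575) were higher, also without passing. Which cells of the ventricle these RNAs came from was not tested. The count of 4 was 0 without TAC+GFP replicates 1 and 2, 1 without Sham+GFP replicate 3, TAC+GFP replicate 1 or TAC+GFP replicate 2, and 2 without Sham+GFP replicate 1 or 2. None of the 10 passed in TAC+JP2NT against TAC+GFP (median -0.105), and under JP2NT Unc5b alone rose with TAC, where 16.1% of all genes rose.

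In the comparison of TAC with sham surgery under JP2NT, 1 of the 10 VEGF and angiopoietin genes rose (Vegfa) and 4 fell (Vegfb, Kdr, Angpt1 and Tek), where 31.9% of all genes were called, 16.1% higher and 15.8% lower. The calls of Vegfb and Angpt1 held in every setting and leave-out tried. Hif1a and Pgf, at 0.37 (adjusted p = 0.502), did not pass. In 6 of the 10 genes the TAC+JP2NT libraries lay apart from the Sham+JP2NT samples, which was so for 49.6% of all genes.

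JP2NT against GFP in sham hearts gave no call among the 10 genes or among all genes tested by limma, a background of 0%, and 2 of the 10 (Kdr and Angpt1) and 581 of all genes had an unadjusted p under 0.05. In 3 of the 10 (Pgf, Kdr and Hif1a) the sham groups did not overlap, as in 30.2% of all genes. The interaction of surgery and virus was called for none of the 10 and for 10 of all genes, 0.0757% (0.0378% higher and 0.0378% lower), with 2 of the 10 (Kdr and Hif1a) and 1505 of all genes at an unadjusted p under 0.05.

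Markers of the vessel wall moved beside these genes. Of 7 pericyte markers 5 fell with TAC under GFP, where 24.8% of all genes fell and 23.3% rose, and their sum was 15100 to 16030 in Sham+GFP, 9728 to 11480 in TAC+GFP, 15770 to 16680 in Sham+JP2NT and 12300 to 15100 in TAC+JP2NT. Abcc9, the pericyte marker with the largest fall, went from 4372 ± 437 (SD, n = 3) to 2172 ± 128 (n = 4). Rgs5 (-0.26) and Cspg4 (-0.06) did not pass. Whether these markers are specific to pericytes in these hearts was not tested. Pericytes are a source of angiopoietin-1, and the part of pericyte number in the level of Angpt1 was not tested. Of 5 smooth muscle markers 3 fell, of 6 fibroblast markers 3 rose and 1 fell, of 7 macrophage markers 2 fell, of 8 cardiomyocyte markers 1 rose and 4 fell, and of 4 atrial markers none passed. With JP2NT in TAC hearts, 2.75% of all genes were higher and 3.4% lower. There, 3 of 7 pericyte and 1 of 8 cardiomyocyte markers were higher, and 2 of 10 endothelial markers were lower (Egfl7 at -0.43 and Vwf at -0.61). No marker of the other 6 lists passed. No marker was at 0 in all libraries.

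The genes whose profile over the 13 samples was most like that of 4 of these genes were found by the mean absolute difference of log2 values relative to the Sham+GFP mean. For Vegfa they were Coro6 (0.0466), Stk38 (0.06) and Psmb5 (0.0696), and for Kdr they were Myo10 (0.0751), Lpin1 (0.0822) and Lynx1 (0.0836). Lynx1, for example, went from 6195 in Sham+GFP to 3649 in TAC+GFP, and was at 5694 in Sham+JP2NT and 4224 in TAC+JP2NT. Angpt1 was closest to Nr3c2 (0.128), Gucy1a1 (0.144) and Abca12 (0.152). For Pgf, the nearest were Spry4 (0.218), Csrnp1 (0.221) and Col4a1 (0.263), which are farther off. Csrnp1 was at 565.8 and 653 in TAC+GFP replicates 1 and 2 and at 197.8 and 281.5 in replicates 3 and 4, as Pgf was high in the same pair of libraries.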

How the data were processed

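Polyadenylated RNA of 14 ventricle libraries was made with a stranded kit and sequenced in pairs, per the labels' protocols. FastQC 1.0.0, STAR 2.6.1a, Salmon and mm10 are named per the submitters' processing notes, while no Salmon version, annotation or scaling method is given in the sources used here. The table deposited by the authors holds a signal made from gene counts divided by scale factors, separately for GFP and JP2NT libraries, as the values show. After division by the value of 1 read, 1.106 to 2.847% of values lay within 0.001 of a whole number, so reads were not recovered, and limma was used on logarithms.

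Values were rescaled jointly over all libraries by unweighted trimmed means of M-values (30% of ratios and 5% of mean levels trimmed). Sham+JP2NT replicates 1 and 2 were averaged into 1 sample, since their variance ratio to counting noise was 1.33 over genes with at least 100 reads per pair and 2.11 over those with at least 10000, against 2.36 to 26.7 and 16.4 to 483 in the other 17 pairs. Genes with at least 10 in at least 3 of 13 samples (13212 of 24972, of which 18188 were above 0) were fitted as log2(value + 1) with limma-trend (limma 3.58.1, R 4.3.3) with 1 mean per group and 1 spread (9 residual and 5.71 prior degrees of freedom), two-sided, with Benjamini-Hochberg adjustment over all genes tested and calls at 0.05. The median within-group SD of log2 values was 0.107 and 0.0835 in sham libraries (GFP and JP2NT) and 0.158 and 0.176 in TAC libraries (GFP and JP2NT). Ratios of 2 genes were compared by exact permutation. A run of the fit on simulated counts checked its code only. Those counts had few changed genes, the same dispersion in all groups and no averaged libraries, unlike these data.

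Replicate numbers did not pair samples: none of 19 same-numbered pairs had deviations correlated above 0.1 (-0.171 to 0.076). The 10 genes, the pathway lists and the marker lists were chosen with earlier results of these data known. All 10 genes are named. Of the other pathway lists, the rule names up to 5 genes with the largest change among those called in each of TAC+GFP against Sham+GFP and TAC+JP2NT against TAC+GFP, and for Vegfa, Pgf, Angpt1 and Kdr the 3 genes most alike. Others (such as the remaining called genes of a list, Esm1, Dll4, Csrnp1 and single markers) were named after their values were seen. Among the other ligands, receptors and modulators, Angpt4 and Sh2d2a did not pass the filter, and 1 of the target genes first listed is not reported here. Gene positions and exon lengths are from GENCODE M21 (GRCm38) and promoters from RefSeq. Alternatives were other scalings, pseudocounts and filters, 14 separate libraries, a replicate block, averaged pairs, a spread per group, fits of the groups compared alone and leaving out libraries.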

Additional observations from a re-analysis of the deposited data

Results flagged for a closer look

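In groups of 4 libraries, the highest or lowest value was set against the gap to its nearest neighbour by Dixon's ratio at its 95% critical value. Of 26 groups of values tested, 2 passed, where chance flags about 1 in 20. Vegfa in TAC+JP2NT replicate 4 was 3048, above the other 3 libraries of its group at 2460 to 2548 (ratio 0.836). Flt1 in TAC+JP2NT replicate 3 was 1728, below the others at 1947 to 1992 (ratio 0.84).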

How the results depend on the processing

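Of 1070 recalculated values of the 10 genes, 32 lost a call, 13 gained one, 1 moved (Pgf in TAC+JP2NT against TAC+GFP without TAC+GFP replicates 1 and 2, -0.14) and the other 1024 stayed on their side of the threshold. No called value changed sign, but 36 values of 7 genes that had not passed did. With TAC under GFP, the count of 5 called genes was 5 or 6 throughout. The count of 1 in TAC+JP2NT against TAC+GFP was 0 with no filter on low values, with the closest TAC pairs averaged, with a spread per group and with only the groups compared, and ranged from 0 to 3 with a single library left out (0 without TAC+GFP replicate 1 or 2 or TAC+JP2NT replicate 1 or 2, and 3 without TAC+GFP replicate 3). Alternatives chosen after seeing the data gave 0 without TAC+JP2NT replicates 2 and 4 and 0 without TAC+GFP replicates 1 and 2. The count of 5 in TAC+JP2NT against Sham+JP2NT was 3 with no filter, 3 with only the groups compared and 3 without TAC+JP2NT replicates 2 and 4, and ranged from 2 (without Sham+JP2NT replicate 3) to 5 with a single library left out. The interaction count of 0 became 1 (Kdr) with 14 separate libraries. The replicate block was fitted only on the 14 separate libraries, so its values are set against that fit. With it the interaction count was again 1 (Kdr, 0.57, adjusted p = 0.0474), that in TAC+JP2NT against TAC+GFP went from 1 to 2 (Pgf and Hif1a), that in TAC+GFP against Sham+GFP from 5 to 6 with Pgf added (0.98, adjusted p = 0.00734), and Hif1a took the place of Kdr in TAC+JP2NT against Sham+JP2NT. In the ratios the replicate block gave 0.76 for Flt1 to Kdr in TAC+GFP against Sham+GFP. The causes were not tested.

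Over all genes, the 812 called in TAC+JP2NT against TAC+GFP became 1417 in the values as deposited, 412 with a spread per group, 181 with only the groups compared, 158 with closest pairs averaged, 268 to 1069 with a single library left out, 82 without TAC+JP2NT replicates 2 and 4 and 73 without TAC+GFP replicates 1 and 2. The 10 of the interaction became 127 with 14 separate libraries and 77 when the replicate block was added to those, 76 with a spread per group, 6 with no filter, 4 with closest pairs averaged and 0 to 53 with a single library left out. The 4221 of TAC+JP2NT against Sham+JP2NT became 1870 without Sham+JP2NT replicate 3. Depth limits Angpt2, Pgf and Vegfc, at 37.2 to 157 reads per library on average, more than the other genes.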

Other observations

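The ligand and receptor of lymphatic growth did not pass with TAC under GFP, while 3 of 6 lymphatic endothelial markers rose and 1 fell. Over all genes tested 23.3% rose and 24.8% fell. Flt4, the VEGF-C receptor gene, was 0.25 higher on the log2 scale (adjusted p = 0.0957), Vegfd was 0.23 higher (adjusted p = 0.484), and Vegfc was -0.25 (adjusted p = 0.236). Of 6 lymphatic markers, Mmrn1 (1.29), Pdpn (0.99) and Ccl21a (0.54) rose and Prox1 (-0.45), the transcription factor of lymphatic identity that heart muscle also expresses, fell. Lyve1 (-0.04, limma adjusted p = 0.871) and Reln (0.13, limma adjusted p = 0.534) did not pass. The summed level of the 6 was 1360 to 1540 in Sham+GFP and 1506 to 1758 in TAC+GFP, so the sums overlapped. None of the 6 passed in TAC+JP2NT against TAC+GFP.

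Nrp2, a co-receptor of VEGF-C, was at 1010, 984, 852.3 and 570.4 in TAC+JP2NT and at 602.9 to 670.3 in TAC+GFP. Replicate 4 of TAC+JP2NT was at the sham level, 540.2 to 600.7 in Sham+GFP, and the other 3 were above every other library. The log2 difference between these groups was 0.38 (adjusted p = 0.103), and with TAC under JP2NT Nrp2 rose by 0.52 (adjusted p = 0.0262).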
